A study of Eurytemora affinis with 18 samples.

Results

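Adult males of *Eurytemora affinis*, an estuarine copepod, were compared after exposure to tebufenozide (TEB) at a nominal 50 µg/L with male controls, over the genes that are not higher in females than in males. A gene was taken as a member if it was tested in males and its fitted log2 ratio of females over males at 0.5 µg/L was 0 or below, since none of the libraries at 0.5 µg/L belongs to the comparison. This gave 9688 members among 17492 genes tested in males (55.4%) and 23728 genes in the count table. With a ratio of -1 or below the members were 7923. At the border, 193 members had a ratio between -0.1 and 0 and 222 genes left out had one between 0 and 0.1.

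Each library held RNA of entire adults pooled by 30. The groups used were males at 50 µg/L (3 libraries), male controls (3 libraries) and, for reference, males at 0.5 µg/L and females at 0.5 µg/L, at 50 µg/L and as controls (3 libraries each). All groups, controls included, received acetone at 0.01% w/v as solvent and were kept for 72 h at 15 °C and 15 psu. The copepods were wild-collected, neither strain nor age was given in the labels, and the concentrations are nominal. The p-values measure the spread between the 3 pools of a group, and in pools of whole animals more cells of a type and more RNA per cell cannot be told apart.

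TEB is an insect growth regulator that binds the ecdysone receptor and mimics the moulting hormone 20-hydroxyecdysone. In insects the activated receptor switches on a small set of early transcription factors, which then turn on late genes of cuticle, muscle and other tissues. Juvenoids, which are methyl farnesoate in crustaceans and juvenile hormone in insects, modulate this response. Adult copepods no longer moult. Foreign compounds are handled in arthropods by cytochrome P450 monooxygenases, by glutathione S-transferases that couple glutathione to reactive molecules, and by efflux pumps.

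The libraries of males at 50 µg/L held 5019069, 3882407 and 8181508 counts in replicates 1, 2 and 3, against 7909420, 10468479 and 8754285 counts in male controls. A list of 200 genes high in females at 0.5 µg/L served to measure RNA of such genes in males. Its median level, as a percentage of that in female controls, was 0.212, 0.263 and 0.444% in males at 50 µg/L, against 0.319, 33.9 and 45.2% in male control replicates 1, 2 and 3. The summed level of the list ran from 568 to 622 CPM, the counts scaled to a common library total, in males at 50 µg/L and from 577 to 27900 CPM in male controls. Of the defining markers of female tissue, vitellogenin, the yolk protein precursor, was at 0, 0 and 0.244 CPM in males at 50 µg/L, against 1.14, 28.1 and 44 CPM in male controls. The summed level of the cyclin B genes, which serve mitosis and oogenesis, ran from 4.78 to 6.44 CPM in males at 50 µg/L and from 11.4 to 123 CPM in male controls. Control replicates 2 and 3 thus went in part against their label. Over the list of 200 genes, control replicate 1 was the only control at the level of the exposed males. For vitellogenin (1.14 CPM) and the cyclin B genes (11.4 CPM) it was the control nearest to them but above each exposed library. Members took 73.1, 73.1 and 71.9% of the counts in males at 50 µg/L, against 74.3, 55.8 and 49.9% in male controls. All 3 exposed libraries were read on a Mid Output flow cell at 150 bp and all 3 controls on a High Output flow cell at 75 bp, so dose, flow cell and read length cannot be told apart in this comparison.

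**Figure D1:**
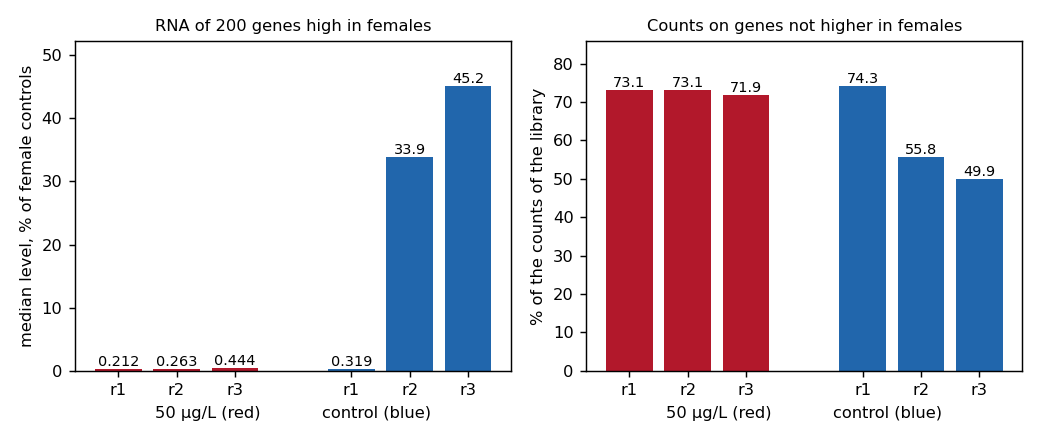
RNA of genes high in females (left, median of 200 genes as % of female controls) and share of counts on genes not higher in females (right, % of counts) in each library, with males at 50 µg/L in red and male controls in blue. Only control replicates 2 and 3 stand apart, at 33.9 and 45.2% on the left and at 55.8 and 49.9% on the right.

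Among the members, 78 were higher and 12 lower in males at 50 µg/L than in male controls, at an adjusted p of at most 0.05 from the quasi-likelihood test of edgeR and a fold change of at least 2. These 90 genes were 0.929% of the members, where 0.732% of all genes tested were called (0.48% higher and 0.252% lower). An unadjusted p under 0.05 was found for 2259 members. The log2 fold changes ran from 1.07 to 4.63 in the 78 genes and from -4.95 to -1.25 in the 12 genes. In all 90 the 3 exposed libraries lay on one side of the 3 controls, and 15.1% of all genes tested had all exposed libraries above and 11.8% all below. That holds for control replicate 1 by definition, as it is among these 3 controls. The counts rested on single libraries. They were 2, 0 and 8 without replicates 1, 2 and 3 of the males at 50 µg/L, and 1873, 0 and 5 without male control replicates 1, 2 and 3. Each call made with factors from all genes was therefore lost when replicate 2 of either group was left out. The interaction with sex described below was not refitted without single libraries. DESeq2 called 89 of the 90 genes and 787 members in all, where it called 11.3% of all genes tested.

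How the libraries were scaled moved the balance of higher and lower genes. With scaling factors (TMM) from all genes, the median log2 fold change was 0.44 over members and -0.49 over the other genes, and 76.8% of members were above 0. When the factors were computed over members only, which is called member scaling from here on, the median over members was 0.01 and 50.6% were above 0. Fold changes were then lower by a median of 0.48 on the log2 scale. Under member scaling 43 members were called, 13 higher and 30 lower, where 0.292% of all genes tested were called (0.0743% higher and 0.217% lower). All 13 and 12 of the 30 were also called with the factors from all genes. The 108 members called by either scaling had the same sign in both. The shared sign adds little, as a call required a log2 change larger than the median shift of 0.48 between the scalings. Of the 90 genes above, 74 of the 78 higher and all 12 lower still had groups that did not overlap. Without control replicates 2 and 3, 26 members were called, 5 higher and 21 lower, and all 90 kept their sign. That fit has a single control, which is assumed to vary like the libraries of the other male groups, so its calls hold no check on the spread of the controls. The kept signs follow from groups that did not overlap and add no support.

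With both scalings and also in that fit against the single control, 8 genes were called. The tubulin alpha-3 chain-like LOC111709132 was the one higher. The 7 lower ones were the myosin heavy chains LOC111711689 and LOC111711716 and the uncharacterized LOC111700229, LOC111709138, LOC111712298, LOC111712963 and LOC111714654. With the flow cell as a covariate, 5 of these 7 had log2 fold changes above 0 (0.03, 0.18, 0.28, 1.49 and 0.70 for LOC111711689, LOC111711716, LOC111700229, LOC111709138 and LOC111712963). Gene names came from the study's own table of genes changed in these samples, which names 569 of the members, all 90 called genes included. Of these 569, 478 had log2 fold changes above 0, and 439 had all exposed libraries above all controls (2361 of 9688 over all members). These counts follow from that choice. The median log2 fold change of the named members was 1.41 (0.97 under member scaling). The groups of genes below are drawn from these names, so none of their counts is independent evidence of a direction. Calls in a group are to be read beside those of all 569 named members. Of these, 78 were called higher and 12 lower, and 13 and 27 under member scaling.

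Members were also grouped by their sex bias, without a test between the groups. The 773 members with a log2 ratio of females over males of -5 or below, the most male-biased genes, had a median log2 fold change of 0.01 with all genes and -0.36 under member scaling. The 3381 members between -3 and -2 had medians of 0.59 and 0.17. Of the 78 genes called higher, 42 were in that range and 2 were among the 773, and of the 30 called lower under member scaling 14 were among the 773.

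**Figure D2:**
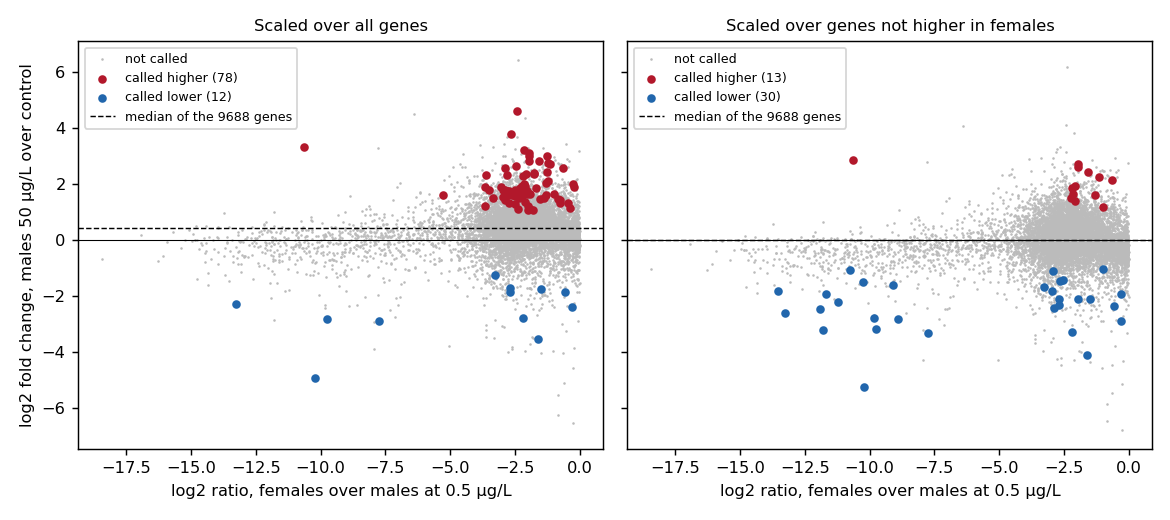
Log2 fold change of males at 50 µg/L over male controls (vertical) against the log2 ratio of females over males at 0.5 µg/L (horizontal) for the 9688 genes not higher in females. With factors from all genes (left) 78 genes were called higher (red) and 12 lower (blue) around a median of 0.44, and with factors from these genes alone (right) 13 and 30 around a median of 0.01.

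Detoxification genes made up the group with the most calls. Of 18 members in the list, 8 were higher and none lower, with 3 of the 8 called under member scaling, and the median log2 fold change was 1.56 (1.08 under member scaling), beside 1.41 (0.97) over all members with a name and 0.44 (0.01) over all members. These names were chosen by the study on the same samples. The most abundant was the glutathione S-transferase-like LOC111714366. It was at 1033, 970.3 and 1469 CPM in males at 50 µg/L, against 442, 355 and 199 CPM in male controls, a log2 fold change of 1.80 (SE 0.33, adjusted p = 0.037 from the quasi-likelihood test of edgeR) and 1.39 under member scaling (adjusted p = 0.036). The exposed libraries were all above the highest control. Its relative, the glutathione S-transferase 1-like LOC111698532, had 672, 656 and 594 CPM in males at 50 µg/L, against 236, 192 and 182 CPM in male controls. The 3 libraries within each group were close together and the log2 fold change was 1.66 (SE 0.22, adjusted p = 0.014 from edgeR), and 1.20 under member scaling (adjusted p = 0.015). Microsomal glutathione S-transferase 1-like LOC111714203, an enzyme of the same reaction in membranes, was at 31.4, 29.6 and 42.7 CPM in males at 50 µg/L, against 10.1, 11.8 and 8.38 CPM in male controls (log2 1.78, adjusted p = 0.043 from edgeR), and was not called under member scaling (1.29, adjusted p = 0.073).

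The catalytic subunit of glutamate-cysteine ligase, which carries out the rate-limiting step of glutathione synthesis, was higher too. LOC111706346 had 324, 242 and 349.5 CPM in males at 50 µg/L, against 94.5, 117 and 118 CPM in male controls, and the log2 fold change was 1.47 (SE 0.25, adjusted p = 0.029 from edgeR), or 0.95 under member scaling, where it was not called. The regulatory subunit of this enzyme, LOC111694701, had a log2 fold change of 1.30 with an adjusted p of 0.052 from edgeR, just over the threshold.

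Of the cytochrome P450 genes, monooxygenases that act on many foreign and endogenous compounds, 3 in the list were higher. The P450 2C31-like LOC111698334 was at 13.9, 12.5 and 18.1 CPM in males at 50 µg/L, against 2.93, 1.6 and 0.698 CPM in male controls, the widest gap of the group (log2 3.11, SE 0.50, adjusted p = 0.022 from edgeR, and 2.74 under member scaling, adjusted p = 0.036). Every exposed library was above every control although the level was low. The P450 3A24-like LOC111712470 had 50.5, 45.7 and 79 CPM in males at 50 µg/L, against 20.2, 19.8 and 17.4 CPM in male controls, and the P450 6a13 LOC111705105 had 50.5, 65.2 and 100.3 CPM in males at 50 µg/L, against 28.5, 30.7 and 20.8 CPM in male controls. Their log2 fold changes were 1.61 and 1.43 (adjusted p = 0.029 and 0.045 from edgeR) and both calls were lost under member scaling. The multidrug resistance protein 1-like LOC111712699, an efflux pump of the ABC family, was at 87.3, 110.1 and 157 CPM in males at 50 µg/L, against 49.3, 64.7 and 40.0 CPM in male controls (log2 1.20, adjusted p = 0.049 from edgeR), also lost under member scaling. The other 10 members of the list did not pass the test. Among them, the phosphodiesterases LOC111712522 and LOC111701559 entered by accident through the word esterase in their names. Acetylcholinesterase-like LOC111696990 and cholinesterase 1-like LOC111697646 entered through the same word. All of these count in the 18 members and in the median.

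A few called oxidoreductases outside this list were picked out by name after their values were seen. The sulfoquinovose 1-dehydrogenase-like LOC111714714, named after a bacterial enzyme that oxidises a sulfonated sugar, was at 169, 178 and 289 CPM in males at 50 µg/L, against 33.9, 38.4 and 24.8 CPM in male controls. The exposed libraries were far above the controls, including control replicate 1, and the log2 fold change was 2.71 (SE 0.32, adjusted p = 0.0093 from edgeR) and 2.24 under member scaling (adjusted p = 0.018). In males at 0.5 µg/L it was at 135, 71.8 and 66.8 CPM, so all 3 libraries at the lower dose lay between the control and 50 µg/L libraries. In females it was at 41.3, 63.5 and 59 CPM at 50 µg/L and at 40.6, 45.8 and 38.9 CPM in controls (log2 0.39), and the fold change in males exceeded that in females by 2.37 on the log2 scale (interaction of sex and exposure, adjusted p = 0.029 from the quasi-likelihood test of edgeR). It was the only one of the 90 genes for which this interaction was called, where 4 of 18110 genes were called (0.0221%).

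The NADP-dependent alcohol dehydrogenases C, which reduce aldehydes, had 2 called genes. LOC111714791 had 182, 269 and 261 CPM in males at 50 µg/L, against 70.8, 71.4 and 70.2 CPM in male controls, with controls within a narrow range (log2 1.75, SE 0.21, adjusted p = 0.0093 from edgeR), but was not called under member scaling (1.25, adjusted p = 0.063). LOC111700713 had 103, 103 and 169 CPM in males at 50 µg/L, against 45.1, 28.5 and 18.9 CPM in male controls, and was called with both (log2 2.02 and 1.63). The pirin-like LOC111718033 was at 36.6, 28.8 and 48.4 CPM in males at 50 µg/L, against 8.38, 4.8 and 5.78 CPM in male controls and was called with both scalings as well (log2 2.59 and 2.16, adjusted p = 0.019 and 0.038 from edgeR). Amine oxidase B-like LOC111698039, which breaks down monoamines, was at 587, 588 and 459 CPM in males at 50 µg/L, against 227, 205 and 157 CPM in male controls, with a log2 fold change of 1.47 (adjusted p = 0.035 from edgeR), and 1.02 (not called) under member scaling.

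Genes of the hormonal axis were few among the members. The list of ecdysone and juvenoid signalling held 2 members, of which 1 was higher. Methyl farnesoate epoxidase-like LOC111717477, in insects the P450 that converts methyl farnesoate into juvenile hormone, was at 29.2, 23.9 and 33.5 CPM in males at 50 µg/L, against 5.3, 2.04 and 3.49 CPM in male controls. The groups were well apart, with a log2 fold change of 3.01 (SE 0.45, adjusted p = 0.017 from edgeR), and 2.60 under member scaling (adjusted p = 0.028). Males at 0.5 µg/L had 8.78, 3.44 and 4.78 CPM, which overlaps the controls. The ecdysone-induced protein 74EF-like LOC111704069, an early transcription factor of the ecdysone response in *Drosophila*, did not pass the test (log2 1.45, SE 0.44, adjusted p = 0.086 from edgeR), with 23.8, 31 and 39.3 CPM in males at 50 µg/L, against 17.2, 4 and 13.5 CPM in male controls. All exposed libraries were above all controls there too, but control replicate 2 was far below the other controls.

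Heat shock proteins, chaperones that bind unfolded proteins, were higher in 3 of 8 members and the other 5 did not pass the test. With member scaling none of the 8 was called, although all 8, named from the study's list, had exposed libraries above all controls, as had 439 of the 569 named members (median log2 fold change 2.10, and 1.63 under member scaling). Heat shock 70 kDa protein 1-like LOC111707610 was at 140.4, 154 and 62.5 CPM in males at 50 µg/L, against 15.9, 24.7 and 12 CPM in male controls (log2 2.76, adjusted p = 0.045 from edgeR, and 2.27 with adjusted p = 0.072 under member scaling). Its namesake LOC111717003 had 119, 105 and 53.3 CPM in males at 50 µg/L, against 11, 24.5 and 15.1 CPM in male controls (log2 2.45, adjusted p = 0.043 from edgeR). In both genes exposed replicate 3 was the lowest of its group and was still above the highest control. Heat shock protein beta-1-like LOC111708726, a small heat shock protein, had 262, 247 and 114 CPM in males at 50 µg/L, against 73.2, 72.1 and 49.1 CPM in male controls (log2 1.68, adjusted p = 0.03 from edgeR). 3 more genes of the name heat shock 70 kDa protein 1-like missed the threshold, with log2 fold changes of 3.20, 2.19 and 2.02 and adjusted p of 0.062, 0.053 and 0.062 from edgeR. How reads that fit several of these genes were counted is not stated, so the values of namesakes are uncertain.

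**Figure D3:**
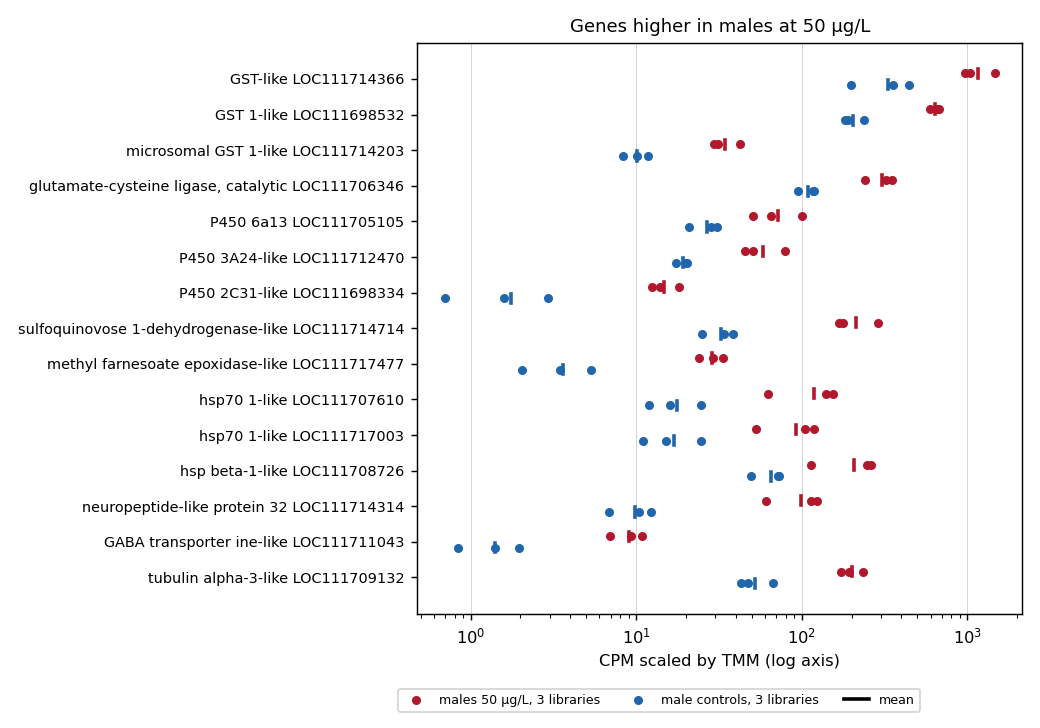
CPM scaled by TMM from all genes (log axis) in the 3 libraries of males at 50 µg/L (red) and the 3 male controls (blue) for 15 genes called higher, with vertical strokes for group means. In every gene the lowest exposed library is above the highest control, for example 594–672 CPM in males at 50 µg/L against 182–236 CPM in male controls for GST 1-like.

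Of 28 members in the list of neurotransmission, which serve signalling between nerve cells, 2 were higher and 26 were not called. Of the 569 named members 78 were higher. All 28 had exposed libraries above all controls, as had 439 of the 569 named members. The median log2 fold change was 1.50 (1.03 under member scaling), in a list again named by the study on these samples. The neuropeptide-like protein 32 LOC111714314 was at 123, 113 and 61 CPM in males at 50 µg/L, against 10.5, 12.3 and 6.88 CPM in male controls (log2 3.32, SE 0.47, adjusted p = 0.015 from edgeR) and was called under member scaling (2.85, adjusted p = 0.038). Its level was far lower in females at 0.5 µg/L (log2 ratio of females over males -10.63), and the exposed libraries were 61 CPM or more while no control passed 12.3 CPM. The GABA transporter ine-like LOC111711043, a carrier of the kind that clears transmitters from synapses, was at 6.93, 10.9 and 9.28 CPM in males at 50 µg/L, against 0.838, 1.96 and 1.4 CPM in male controls (log2 2.65, adjusted p = 0.035 from edgeR) and was not called under member scaling. The acetylcholine receptor subunit alpha-like LOC111695263 and acetylcholinesterase-like LOC111696990, an enzyme that breaks down acetylcholine, missed the threshold with adjusted p of 0.053 and 0.053 from edgeR. Their log2 fold changes were 2.51 and 1.67.

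Other genes with a role in nerve cells or the eye were called. ELKS/Rab6-interacting/CAST family members, scaffold proteins of the presynaptic active zone, had 2 genes higher, LOC111710577 (log2 2.59) and LOC111712917 (1.74), neither of them called under member scaling (adjusted p = 0.072 and 0.074 from edgeR). In the list of eye and light sensing, 2 of 4 members were higher and none under member scaling. The irregular chiasm C-roughest protein-like LOC111708628, a cell adhesion protein of the developing eye in *Drosophila*, was at 32.9, 32.6 and 28.9 CPM in males at 50 µg/L, against 5.44, 9.42 and 8.77 CPM in male controls (log2 1.99, adjusted p = 0.021 from edgeR), and retinol dehydrogenase 12-like LOC111701298 was at 47, 42.4 and 72 CPM in males at 50 µg/L, against 18, 12.6 and 15.4 CPM in male controls (log2 1.82, adjusted p = 0.03). Of 12 ion channel members 1 was higher, LOC111710999. This calcium-activated chloride channel regulator 2-like gene had 95 counts in males at 50 µg/L and 10 in male controls, a ratio of scaled counts of 16.5 (95% interval 8.59 to 35.5, for counting error only). It was not called under member scaling (adjusted p = 0.072 from edgeR).

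Sums over genes named for nerve and muscle are given beside these genes. Like the markers of female tissue above, they rest on names from the study's own table of genes changed in these samples. Their direction is therefore no independent evidence on these tissues. The summed level of the synaptotagmin genes was 82.9, 74.7 and 126 CPM in males at 50 µg/L, against 44.3, 18.6 and 43.2 CPM in male controls, before TMM scaling. That of the titin genes, giant proteins of the sarcomere, was 151, 182 and 187 CPM in males at 50 µg/L, against 107, 54.6 and 65.5 CPM in male controls. In both, control replicate 1 was the highest control and lay below all exposed libraries. The summed level of the myosin heavy chain genes overlapped, at 153, 140.0 and 258 CPM in males at 50 µg/L, against 142, 172 and 128 CPM in male controls. That sum joins LOC111711689, LOC111711716 and LOC111715464, which were called in opposite directions and are described below. The part of these shifts in the results was not tested.

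In the cytoskeleton, tubulin alpha-3 chain-like LOC111709132, a building block of microtubules, was at 234, 193 and 174 CPM in males at 50 µg/L, against 67.3, 47.1 and 43.1 CPM in male controls. It was among the genes with the smallest adjusted p (log2 1.93, SE 0.22, adjusted p = 0.0093 from edgeR, and 1.50 with adjusted p = 0.018 under member scaling), and its log2 fold change against control replicate 1 alone was 1.55. Of 17 members in the list of sperm tail, cilia and microtubules, 3 were higher and 14 were not called, beside 78 higher of 569 named members. The other called genes were alpha-tubulin N-acetyltransferase 1-like LOC111707382 (log2 1.81, adjusted p = 0.03 from edgeR), which acetylates microtubules, and the axoneme-associated protein mst101(2)-like LOC111704844. The last of these had 49 counts in males at 50 µg/L and 3 in male controls, a ratio of scaled counts of 28.4 (95% interval 9.15 to 142, counting error only). Neither was called under member scaling (adjusted p = 0.073 and 0.072 from edgeR), and LOC111704844 had no adjusted p in DESeq2. The 2 genes named mst101 had been chosen as a marker of male tissue, but their summed level went the other way. It was 2310 to 2960 CPM in female libraries, before TMM scaling. In males at 50 µg/L it was 9.56, 20.9 and 12.5 CPM, against 9.48, 778 and 954 CPM in male controls. The name is thus no sign of sperm tail here. Outside the list, the centrosomal protein of 290 kDa-like LOC111701029, a protein of the base of cilia, and the bicaudal D-related protein homolog LOC111700578 were higher, with log2 fold changes of 1.62 and 2.31, of which only the second was called under member scaling (adjusted p = 0.074 and 0.048 from edgeR).

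Muscle genes split in direction. Of 12 members 3 were higher, 2 lower and 7 were not called, and under member scaling only the 2 lower ones were called. The myosin heavy chain LOC111715464, the motor protein of muscle, was at 141, 125 and 239.8 CPM in males at 50 µg/L, against 61.7, 49.3 and 49 CPM in male controls (log2 1.66, adjusted p = 0.022 from edgeR). The actins LOC111696032 and LOC111695889, thin-filament and cytoskeletal proteins, were higher as well, at 51.1, 52.7 and 57.9 CPM in males at 50 µg/L, against 23.2, 17.2 and 14.8 CPM in male controls for LOC111696032 (log2 1.55, adjusted p = 0.021 from edgeR). By contrast, the myosin heavy chain LOC111711689 was at 24.5, 20.7 and 19.9 CPM in males at 50 µg/L, against 84.7, 101 and 51.9 CPM in male controls (log2 -1.87, SE 0.26, adjusted p = 0.014 from edgeR), with every exposed library below every control. A myosin heavy chain of lower level, LOC111711716, was at 1.3, 1.36 and 1.61 CPM in males at 50 µg/L, against 10.2, 9.33 and 10.6 CPM in male controls (log2 -2.79, SE 0.39, adjusted p = 0.014 from edgeR). The myosin genes that carry the same name thus moved in opposite directions, and with the flow cell as a covariate the falls were no longer seen (log2 0.03 and 0.18).

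Cuticle genes were not called. All 6 members of the list of cuticle and chitin had log2 fold changes below 0 (median -0.46, and -1.01 under member scaling), but groups overlapped in each. Against control replicate 1 alone, LOC111708925, LOC111697606 and LOC111704119 were above 0 (log2 1.71, 1.14 and 0.64). LOC111702984, LOC111711095 and LOC111698563 were below 0 there (-0.33, -0.11 and -1.81). With the flow cell as a covariate, only LOC111704119 stayed below 0 (-0.20). Cuticle protein 7-like LOC111698563 was at 44.9, 85.9 and 92.1 CPM in males at 50 µg/L, against 258, 322 and 41 CPM in male controls, with control replicate 3 below all exposed libraries (log2 -1.48, adjusted p = 0.32 from edgeR). In the list of digestion, the trypsin-1-like LOC111703434, a gut protease, was higher at 15.6, 12.2 and 13.8 CPM in males at 50 µg/L, against 4.47, 3.46 and 5.08 CPM in male controls (log2 1.68, adjusted p = 0.049 from edgeR, and 0.078 under member scaling), and the endoglucanase 7-like LOC111712358, a cellulose-cleaving enzyme, was lower at 1.08, 1.36 and 0.371 CPM in males at 50 µg/L, against 4.47, 17.7 and 8.57 CPM in male controls (log2 -3.56, SE 0.63, adjusted p = 0.03 from edgeR). The other 11 of its 13 members did not pass the test. A second trypsin-1-like, LOC111716204, was at 6.93, 7.88 and 9.65 CPM in males at 50 µg/L, against 39.1, 5.6 and 3.69 CPM in male controls, where the direction was set by control replicate 1.

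In defence and mucus, 2 of 5 members were higher, CD109 antigen-like LOC111706858 of the thioester protein family (log2 1.31, adjusted p = 0.04 from edgeR) and the tolloid-like metalloprotease LOC111700984 (log2 1.94, adjusted p = 0.026), which entered the list through a word of its name. Both calls were lost under member scaling. Serpin B10-like LOC111700682, a protease inhibitor by family, was at 29.7, 41 and 26.7 CPM in males at 50 µg/L, against 111, 57.8 and 58.4 CPM in male controls, and was called lower only under member scaling (log2 -1.62, adjusted p = 0.042 from edgeR, against -1.22 with adjusted p = 0.075). Integumentary mucin C.1-like LOC111711799 had exposed libraries at 172, 167 and 163 CPM and controls at 576, 174 and 260.3 CPM, and was not called (log2 -1.01, adjusted p = 0.1 from edgeR). None of the 3 germline members was called, and the lists of DNA replication (37 named genes), glycolysis (7) and ribosomal proteins (3) held 1, 1 and 0 members, none of them called.

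Further genes called higher with factors from all genes, picked out after their values were seen, are described singly. The b(0,+)-type amino acid transporter 1-like LOC111714415, a carrier of cystine and basic amino acids, was at 39.4, 36.2 and 40.3 CPM in males at 50 µg/L, against 16.6, 8.35 and 12 CPM in male controls (log2 1.65). The putative ferric-chelate reductase 1 homolog LOC111705584 was at 78.6, 63.6 and 120.0 CPM in males at 50 µg/L, against 32.7, 15.3 and 23.9 CPM in male controls (log2 1.87), and melanotransferrin-like LOC111710638, an iron-binding protein, at 58.7, 53.8 and 76.3 CPM in males at 50 µg/L, against 27.9, 17.8 and 32.5 CPM in male controls (log2 1.27). The sodium/potassium ATPase gene LOC111706151, of the ion pump of the cell membrane, showed the smallest rise of the 78 genes together with an uncharacterized gene (log2 1.07, SE 0.20, adjusted p = 0.039 from edgeR). Transcription factor CCAAT/enhancer-binding protein-like LOC111706350 and kelch-like protein 20 LOC111702300, by name an adaptor of a ubiquitin ligase, had log2 fold changes of 1.78 and 2.41. None of these calls held under member scaling.

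Of the 90 called genes 34 were uncharacterized, 25 higher and 9 lower. Among the rises, LOC111696052 was at 24.1, 33.4 and 34 CPM in males at 50 µg/L, against 6.7, 1.42 and 4.89 CPM in male controls (log2 2.83) and LOC111712772 at 72.6, 68.8 and 33 CPM in males at 50 µg/L, against 12.3, 5.6 and 6.68 CPM in male controls (log2 2.83, called with both scalings). LOC111700490 and LOC111711903 were also called with both, with log2 fold changes of 2.37 and 2.03. In each of these the lowest exposed library exceeded the highest control by a wide margin.

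Among the falls, the uncharacterized LOC111712298 had the largest, at 0.217, 0.544 and 0.124 CPM in males at 50 µg/L, against 14.7, 6.04 and 4.49 CPM in male controls (log2 -4.95, SE 0.71, adjusted p = 0.015 from edgeR). It was singled out after its values were seen, as its mean level is low. LOC111714654, whose level in females was far below that in males (log2 ratio of females over males -13.25), was at 26.2, 24.2 and 15.5 CPM in males at 50 µg/L, against 194, 75.8 and 53.4 CPM in male controls (log2 -2.30, adjusted p = 0.049 from edgeR). Its controls were spread widely with replicate 1 on top, yet the exposed libraries lay below all of them. LOC111712203 was at 1.73, 3.26 and 2.47 CPM in males at 50 µg/L, against 10.2, 15.6 and 13.2 CPM in male controls (log2 -2.39) and LOC111700229 at 19.7, 15.2 and 13.2 CPM in males at 50 µg/L, against 89.5, 39 and 34.8 CPM in male controls (log2 -1.76). LOC111706298 had 8.23, 3.53 and 6.18 CPM in males at 50 µg/L, against 20.2, 22.6 and 23.1 CPM in male controls, with controls in a narrow range (log2 -1.86, SE 0.34, adjusted p = 0.035 from edgeR). All 12 falls were also called under member scaling, and the genes added by that scaling included major royal jelly protein 5-like LOC111715982 (log2 -1.81, adjusted p = 0.042) and protein Asterix-like LOC111701361 (log2 -1.93, adjusted p = 0.048).

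**Figure D4:**
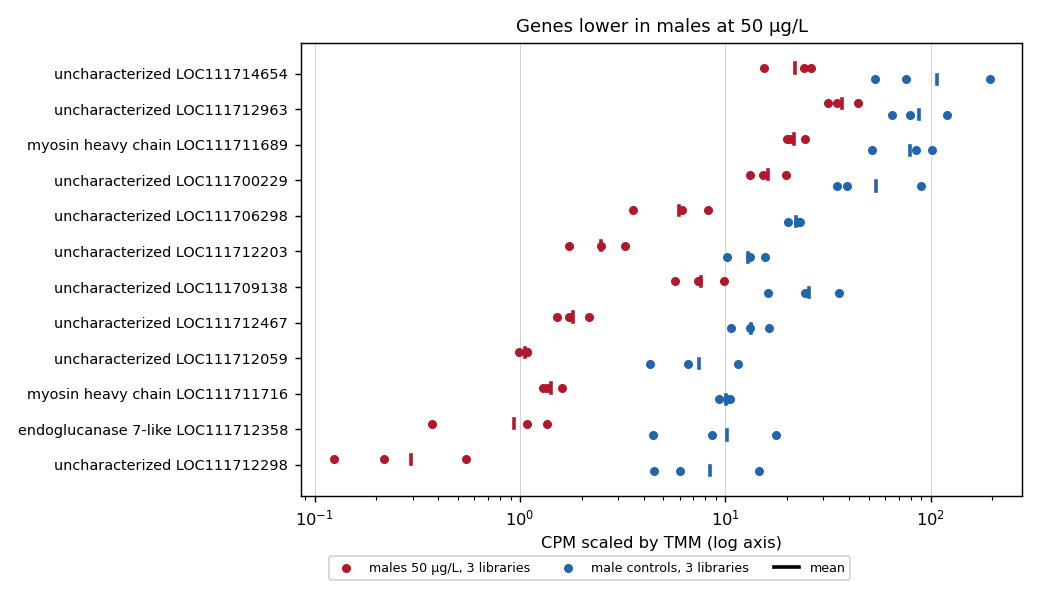
CPM scaled by TMM from all genes (log axis) in the 3 libraries of males at 50 µg/L (red) and the 3 male controls (blue) for the 12 genes called lower, with vertical strokes for group means. In each gene the highest exposed library is below the lowest control, for example 19.9–24.5 CPM in males at 50 µg/L against 51.9–101 CPM in male controls for the myosin heavy chain LOC111711689.

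Flow cell could be compared within a single group, females at 0.5 µg/L, where replicate 3 was read on the Mid Output cell and replicates 1 and 2 on the High Output cell. Of the 12 genes lower in males, 8 were measured in females, and in all 8 the Mid Output female library was below both High Output ones, with a median log2 ratio of -1.98. Over the 7190 members measured in females 44.3% were below both and the median was -0.11. LOC111711689 was at 5.43 CPM in the Mid Output library, beside 21.9 and 18.4 CPM in the others, and LOC111712203 at 2.96 CPM, beside 16.3 and 15.8 CPM. The same direction was found for all 17 of the genes lower under member scaling that were measured in females. The exception in size was LOC111706298, at 17.6 CPM, beside 21.5 and 18.4 CPM.

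The genes higher in males lay on both sides. Of 73 measured in females, 18 were above both High Output libraries, 30 were below both and the median log2 ratio was -0.10. The sulfoquinovose 1-dehydrogenase-like LOC111714714 was at 49.3 CPM in the Mid Output library, beside 50.0 and 38.5 CPM, and the heat shock gene LOC111707610 at 9.29 CPM, beside 9.26 and 6.61 CPM. For other genes the Mid Output library was above both, as for glutathione S-transferase 1-like LOC111698532 (212 CPM, beside 159.8 and 167 CPM), methyl farnesoate epoxidase-like LOC111717477 (2.96 CPM, beside 1.15 and 0.826 CPM) and tubulin alpha-3 chain-like LOC111709132 (20.1 CPM, beside 13.1 and 16.5 CPM). In a fit of all 18 libraries with the flow cell as a covariate, the 73 higher genes measured in females stayed above 0, and of the 8 lower genes measured there 6 turned above 0 and 2, LOC111706298 (-1.66) and LOC111712358 (-0.80), stayed below 0. The covariate could not act on the 3 lower genes without a count in females at 0.5 µg/L (LOC111714654, LOC111712059 and LOC111712298), nor on the higher gene LOC111714314, and LOC111712467 was nearly absent there, so their signs in this fit show nothing. No member was called in that fit (977 had an unadjusted p under 0.05), which rests on the single Mid Output library of females at 0.5 µg/L. The log2 fold changes in it were 2.57 for LOC111714714, 2.54 for LOC111707610, 1.30 for LOC111698532, 1.48 for LOC111717477 and 1.51 for LOC111709132.

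**Figure D5:**
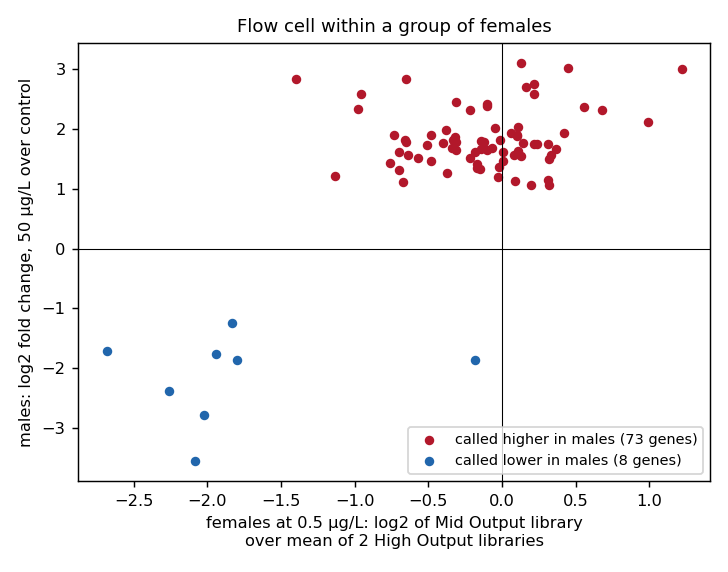
Log2 fold change in males at 50 µg/L over controls (vertical) against the log2 ratio of the Mid Output library over the mean of the 2 High Output libraries of females at 0.5 µg/L (horizontal), for the called genes measured in females. The 73 genes higher in males (red) lie on both sides of 0 with a median of -0.10, and the 8 genes lower in males (blue) all lie left of 0 with a median of -1.98.

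Females and the lower dose gave further values for these genes. In females the genes higher in males had a median log2 fold change of 0.11 at 50 µg/L over controls, with 39 of 73 above 0, and the 8 lower genes had a median of -2.13, all below 0. Over all members 30.6% were above 0, with a median of -0.23, and exposed and control females were read on different flow cells as well. LOC111717477 was at 4.88, 5.79 and 4.24 CPM in females at 50 µg/L, against 2.05, 1.85 and 1.31 CPM in female controls, and LOC111709132 at 27.8, 25.1 and 27.6 CPM, against 24.6, 10.7 and 12 CPM. In both genes no exposed female library was below any control. The same held for the heat shock gene LOC111707610, at 39.1, 16.1 and 23.3 CPM, against 6.71, 8.02 and 6.6 CPM (log2 1.88). It also held for its namesake LOC111717003, at 25.3, 12.8 and 15.6 CPM, against 7.21, 7.17 and 5.91 CPM (log2 1.40). The paper lists both heat shock genes as changed in both sexes. None of these genes was called in females here, where 1 gene was called (0.00643% of genes tested). In males at 0.5 µg/L no member was called. For 74 of the 78 higher genes all 3 libraries at 50 µg/L were above all 3 at 0.5 µg/L (20.1% of all members), and for all 12 lower genes they were below (7.17% of all members). The genes were called on the same libraries at 50 µg/L, so these counts follow in large part from that choice and add no support. Replicates 2 and 3 of the males at 0.5 µg/L also held RNA of genes high in females (18.5 and 19.1% of the level in female controls, and 0.451% in replicate 1), and all 3 were read on the High Output cell.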

How the data were processed

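The authors deposited unnormalized counts of reads for each gene. Single-end reads had been trimmed (Trimmomatic), mapped by STAR on assembly Eaff_2.0 and assigned to genes by featureCounts. Strand setting, versions and the treatment of reads that map to several places are not given in the sources used here. A change of read length and flow cell between groups can thus alter the counts of genes with near-identical copies. The table held 23728 genes in 18 libraries, 31 of them for tRNA.

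The 9 male libraries entered one fit of edgeR 4.0.16 under R 4.3.3 (default filter on low counts, TMM, robust quasi-likelihood test), with DESeq2 1.42.0 as an alternative, and p-values were adjusted by Benjamini-Hochberg over all genes tested. Genes were called at an adjusted p of at most 0.05 and an absolute log2 change of 1 or more. CPM are scaled by TMM unless stated. No pair of replicates was a copy of another. The steps were tested on simulated data in which all male libraries shared a single profile apart from planted changes. Those data held no female RNA in single controls and no flow cell difference, so the test gives no assurance on these points.

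The members and the gene lists were chosen with earlier results of these data known, and lists were made from words in gene names. Named genes were the called members with the largest changes (a mean of at least 5 CPM, 12 named and 4 uncharacterized per direction, groups not overlapping), at most 4 called members per list (2 of the smallest p where none was called), and members that the study names in its text. Genes outside this rule were chosen after their values were seen. Alternatives covered the tool, the filter, the genes behind the scaling, the libraries in the fit, the replicate block, the female share, the flow cell and the definition of members. The fits without control replicates 2 and 3 together, and those that join a tool with member scaling, were added after seeing the data.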

Additional observations from a re-analysis of the deposited data

Results flagged for a closer look

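For the sulfoquinovose 1-dehydrogenase-like LOC111714714 the fold change at 50 µg/L differed between the sexes, as the log2 fold change over controls in males exceeded that in females by 2.37 (interaction of sex and exposure, adjusted p = 0.029 from the quasi-likelihood test of edgeR). The exposed groups of both sexes were read on another flow cell than their controls, and the gene was higher in 3 of 3 exposed male libraries than in any male control. Control replicates 2 and 3, which held RNA of genes high in females, entered the male fold change, which was 2.62 against control replicate 1 alone.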

How the results depend on the processing

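Of members, 90 were called, 78 higher and 12 lower. The numbers in the order all, higher and lower were 787, 713 and 74 with DESeq2, 791, 722 and 69 with the likelihood ratio test of edgeR, 153, 130 and 23 without a filter on low counts, 43, 13 and 30 with member scaling, 26, 22 and 4 with only the 6 libraries compared, and 202, 41 and 161 with the female share of each library as a covariate. With the flow cell as a covariate they were 0, 0 and 0 (977 members at an unadjusted p under 0.05, and the other tools were not run with it). Among alternatives added after seeing the data they were 26, 5 and 21 without control replicates 2 and 3, 50, 6 and 44 when member scaling was also used, 498, 227 and 271 with the likelihood ratio test and member scaling, and 547, 254 and 293 with DESeq2 and member scaling. Leaving out each library once, the quasi-likelihood test of edgeR called 0 to 1873 members, 0 to 1821 higher and 0 to 52 lower. Without replicate 2 of the males at 50 µg/L it called none (1818 at an unadjusted p under 0.05), and likewise without control replicate 2 (1304). Under member scaling the ranges were 0 to 566, 0 to 291 and 0 to 275. The cause of these shifts was not tested. With a member ratio of -1 or below, or with the ratio at 50 µg/L or in controls, 79, 94 and 85 members were called.

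With the replicate block the numbers were 826, 770 and 56. Same-numbered exposed and control libraries correlated at 0.044, 0.033 and 0.14 in their deviations over members. Pairs of unlike number ran from -0.11 to 0.059, the highest for exposed replicate 2 with control replicate 1. Whether a shared number stands for a shared batch is not given by the labels and was not tested.

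The sign of all 90 genes was the same in every alternative other than the flow cell. This adds little, as their groups did not overlap and calls required a log2 change of 1 or more. With the flow cell as a covariate, log2 fold changes turned above 0 for the myosins LOC111711689 (0.03) and LOC111711716 (0.18), mucin-5AC-like LOC111697205 (0.11), cuticle proteins LOC111698563 (1.63) and LOC111711095 (0.99), integumentary mucin LOC111711799 (0.24) and the uncharacterized LOC111712203 (0.06), LOC111709138 (1.49), LOC111712963 (0.70) and LOC111700229 (0.28). Of these, 6 had been called lower. The cuticle proteins LOC111708925 (1.83), LOC111697606 (0.57) and LOC111702984 (1.04), not called before, turned above 0 as well. With single libraries left out, LOC111697205 ran from -0.42 (without replicate 3 of the males at 50 µg/L) to 0.05 (without their replicate 2), LOC111711095 from -0.90 to 0.04 (without control replicates 3 and 2), and trypsin-1-like LOC111716204 from -1.46 to 0.82 (without control replicates 3 and 1). The depth of 3882407 to 8181508 counts in exposed males limits genes of a few CPM most, and with 3 pools a group and a single Mid Output library outside the 50 µg/L groups, flow cell and dose cannot be told apart.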
